A study of Mus musculus with 24 samples.

Results

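The cholesterol synthesis enzymes described here are 10 genes picked by symbol, Hmgcs1, Mvk, Mvd, Idi1, Fdps, Fdft1, Lss, Cyp51, Hsd17b7 and Dhcr7. All 10 were found among the 15582 genes of the deposited table that could be used, and all 10 passed the filter on low values, which kept 6540 genes. Expression was measured by RNA sequencing in livers of male B6C3F1 mice, a hybrid laboratory strain, aged 4 weeks. Dichloroacetic acid (DCA), a chlorination by-product of drinking water and an inhibitor of pyruvate dehydrogenase kinases, was given in the drinking water for 6 days. The groups were 0 (control), 1, 2 and 3.5 g/L DCA, with 6 libraries each and 24 in all. Frozen liver of mixed lobes was used, so a lower value can stand for fewer hepatocytes or for less RNA per hepatocyte, which cannot be told apart in bulk tissue.

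Cholesterol is built from acetyl-CoA in a long chain of steps. The early enzymes make mevalonate and turn it into isoprenoid units, the middle ones join these units into squalene, and the late ones close the rings and trim lanosterol to cholesterol. In liver these genes are classic targets of the sterol-sensing transcription factors of the SREBP family, which are released when sterol in the endoplasmic reticulum is low, and they are therefore known to go up and down together. Their known promoter elements are the sterol regulatory element, bound by SREBP, and the boxes of the partner factors NF-Y and Sp1.

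At 3.5 g/L, 7 of the 10 enzymes fell (Hmgcs1, Mvk, Idi1, Fdps, Fdft1, Cyp51 and Dhcr7), as 12.9% of all tested genes did, and 1, Hsd17b7, rose, as 38.6% of all tested genes did. Mvk was lowest against control, at 43.5% of the control mean, and Hsd17b7 stood at 167% of it. At 1 g/L 0 of the 10 passed the test, which 11.4% of all genes passed. Mvk alone fell and Hsd17b7 alone rose at 2 g/L, where 51.9% of all genes passed, and this rise was lost when the title tag described below entered the fit. The enzymes varied widely between libraries of the same dose, and 9 of them, Mvd apart, did so largely in step.

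Values are RPKM, reads scaled by gene length and by mapped reads, as deposited by the authors. Log2 folds are differences of mean log2(RPKM + 1) from limma, given with a standard error (SE) and n = 6 libraries per dose, and a gene passed the test at an adjusted p under 0.05 over all 6540 genes. Each library held roughly 27.1 to 32.2 M reads (M, mega), as judged from the spacing of its low values. The sample titles also bear an unexplained mark of L1, L2 or L3. All controls are L1, the 1 g/L libraries are 3 of L1 and 3 of L2, all 2 g/L libraries are L2 and all 3.5 g/L libraries are L3, so that at 3.5 g/L tag and dose cannot be told apart. Hepatocyte markers, led by Alb at a mean of 15917 RPKM at 3.5 g/L and 21402 RPKM in control, marked the tissue as liver. Summed over 6 markers they were at 18796 to 24110 RPKM at 3.5 g/L and 24744 to 31268 RPKM in control. Alb makes up most of this sum. Mean RPKM at 3.5 g/L was also lower for Apoa1 (2294, against 3466 in control), Cps1 (565 against 820), Fgb (1136 against 1940) and Cyp2e1 (1072 against 1289). Only Hnf4a, a hepatocyte transcription factor on the list, was higher, with a mean of 128 RPKM against 94.8 RPKM in control. The 6 Kupffer cell markers summed to 40.8 to 58.3 RPKM at 3.5 g/L and 64.6 to 94.8 RPKM in control, and the 4 erythroid markers to 225 to 468 and 233 to 767 RPKM. The part of these markers in the results was not tested. Sums of the 6 sinusoidal endothelial markers (39.8 to 43.8 RPKM at 3.5 g/L, 37.9 to 48.6 RPKM in control) and of the 5 stellate cell markers (46.7 to 62.5 and 49.0 to 90.4 RPKM) overlapped. The 3 cholangiocyte markers summed to at most 1.45 RPKM and the 4 B and T cell markers to at most 3.64 RPKM in any library.

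Promoter sequences of 3 members are shown because they stand for what the data turn on: Mvk fell most, Hsd17b7 rose, and Hmgcs1 is the enzyme of the first step held here. Each is the stretch upstream of the gene's start on GRCm38 (RefSeq), written along the gene's strand. Capitals mark NF-Y boxes (CCAAT, or ATTGG on the other strand) and the sterol regulatory element (TCACNCCAC on either strand). For Hmgcs1 the stretch is chr13:119690101-119690350, plus strand, for Mvk it is chr5:114444019-114444268, plus strand, and for Hsd17b7 it is chr1:169969242-169969455, minus strand, ending where the GENCODE gene model starts.
Hmgcs1: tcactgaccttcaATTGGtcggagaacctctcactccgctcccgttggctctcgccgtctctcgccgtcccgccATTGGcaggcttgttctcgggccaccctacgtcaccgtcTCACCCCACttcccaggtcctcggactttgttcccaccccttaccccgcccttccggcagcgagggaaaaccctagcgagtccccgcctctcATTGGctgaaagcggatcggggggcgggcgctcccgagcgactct
Mvk: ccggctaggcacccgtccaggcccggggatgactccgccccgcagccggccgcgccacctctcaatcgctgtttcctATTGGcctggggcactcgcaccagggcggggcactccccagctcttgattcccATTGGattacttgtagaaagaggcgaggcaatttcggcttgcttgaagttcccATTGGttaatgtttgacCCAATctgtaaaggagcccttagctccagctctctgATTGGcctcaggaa
Hsd17b7: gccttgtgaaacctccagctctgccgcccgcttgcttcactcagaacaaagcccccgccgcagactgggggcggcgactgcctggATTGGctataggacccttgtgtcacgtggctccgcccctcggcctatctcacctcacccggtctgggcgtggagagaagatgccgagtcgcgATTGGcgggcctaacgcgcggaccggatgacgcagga

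RefSeq windows of 250 bases before the start were held for 8 members, and Fdps and Fdft1 are not among them. An NF-Y box occurred in all 8, against 33.8% of all 32851 windows, although Dhcr7 has 3 windows and held it in 1 of them. That Dhcr7 window and the NF-Y boxes of Idi1 and Cyp51 lie inside the GENCODE gene models. Members were counted by gene, over any of their windows, while the shares are by window. An Sp1 box (GGGCGG, both strands) also occurred in all 8, against 32.7% of all windows. The Mvk window held 5 NF-Y boxes and the Hsd17b7 window 3, the last of these beyond the stretch printed. The sterol regulatory element spelled above occurred in 1 member, Hmgcs1, from 137 to 129 bases before its start, against 1.05% of all windows. None of these motifs overlapped another in the Hmgcs1 window. The match is a description of the letters in these windows. Hsd17b7, which rose, and the 5 fallen members with a window (Hmgcs1, Mvk, Idi1, Cyp51 and Dhcr7) all held both kinds of box.

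Hmgcs1 (chromosome 13, GRCm38, 119690379 to 119708260) encodes the cytosolic synthase that joins acetyl-CoA and acetoacetyl-CoA. At 3.5 g/L its 6 libraries lay between 20.6 and 25.4 RPKM, with a median of 23.5, while controls lay between 24.6 and 45.0 RPKM, with a median of 33.5. The groups overlapped at their edge, where 3 controls sat near 25 RPKM. The mean was 23.1 ± 2.16 RPKM at 3.5 g/L and 34.2 ± 10.3 RPKM in control (SD, n = 6 each). The log2 fold was −0.49 (SE 0.19, adjusted p = 0.0306). This call rested on single libraries: it was lost without control 4 (adjusted p = 0.0733), control 7 (0.0816), control 8 (0.0784), 3.5 g/L library 98 (0.0575) or 3.5 g/L library 102 (0.0582), at folds of −0.47 to −0.41. At 2 g/L Hmgcs1 was at 40.8 ± 13.7 RPKM, up to 66.0 in library 75, and at 1 g/L at 25.6 ± 6.20 RPKM.

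Mevalonate kinase, Mvk (chromosome 5, 114444269 to 114460591), which puts the first phosphate on mevalonate, showed the steadiest fall. Libraries at 1 g/L ran from 5.03 to 7.11 RPKM (median 5.60), those at 2 g/L from 3.79 to 5.35 (median 4.69) and those at 3.5 g/L from 2.13 to 3.54 (median 3.02), where controls ran from 5.40 to 8.73 RPKM (median 6.59). Neither 2 nor 3.5 g/L overlapped with control, and 3.5 g/L did not overlap with 2 g/L. The log2 fold was −0.22 at 1 g/L (SE 0.11, adjusted p = 0.189), −0.47 at 2 g/L (SE 0.11, adjusted p = 0.000919) and −0.97 at 3.5 g/L (SE 0.11, adjusted p = 1e-07). Its slope over dose was −0.28 log2 units per g/L (SE 0.03, adjusted p = 2.82e-08).

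Mvd (chromosome 8, 122433601 to 122443422), the decarboxylase that yields isopentenyl diphosphate, had the lowest level in control and the widest scatter at 1 g/L and 3.5 g/L. Its libraries spanned 2.05 to 5.48 RPKM at 3.5 g/L and 3.55 to 5.18 RPKM in control, and at 1 g/L they spanned 1.93 to 6.74 RPKM, a CV of 50.4%. About 98 reads stood behind its lowest value, if the longest annotated transcript of 1833 bases sets the length. The log2 fold at 3.5 g/L was −0.25 (SE 0.20, 95% interval −0.66 to 0.17), too wide to tell a fall like that of Fdft1 from no change.

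Idi1 (chromosome 13, 8885501 to 8892451) interconverts the 2 isoprenoid building blocks. It reached 15.8 to 20.7 RPKM at 3.5 g/L (median 18.4), against 19.4 to 35.5 RPKM in control (median 27.4). Only 1 library at 3.5 g/L, the highest, lay above the lowest control. The fold was −0.51 (SE 0.16, adjusted p = 0.00816). Its relative Idi2 was at most 0.187 RPKM in any control and was not tested.

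Fdps (chromosome 3, 89093588 to 89101959), farnesyl diphosphate synthase, was the most abundant member per length at every dose. Its libraries lay at 34.5 to 45.2 RPKM at 3.5 g/L (median 39.2), below all controls, which lay at 53.9 to 99.9 RPKM (median 71.5). The mean was 53.7% of the control mean and the log2 fold −0.84 (SE 0.15, adjusted p = 5.88e-05). At 1 g/L (53.8 ± 10.8 RPKM) and 2 g/L (57.5 ± 6.11 RPKM) it was below control (73.4 ± 20.4 RPKM, SD, n = 6 each) by −0.42 and −0.31, without passing the test (adjusted p = 0.0682 and 0.0881). Both passed when control 3 (adjusted p = 0.0491 at 1 g/L and 0.0407 at 2 g/L) or control 5 (0.0421 and 0.0377) was left out, and both also passed under median-ratio library factors (0.0341 and 0.0119).

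Fdft1 (chromosome 14, 63145150 to 63179578) is squalene synthase, which commits the chain to sterols. Its values were 9.58 to 14.3 RPKM at 3.5 g/L (median 11.2) and 12.7 to 20.2 RPKM in control (median 16.3), with overlap. The log2 fold was −0.45 (SE 0.14, adjusted p = 0.0104).

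Lss (chromosome 10, 76531588 to 76557138), which closes the rings to lanosterol, did not pass the test as deposited. It was at 7.92 ± 1.61 RPKM at 3.5 g/L and 9.52 ± 2.23 RPKM in control (SD, n = 6 each), a log2 fold of −0.23 (SE 0.13, 95% interval −0.50 to 0.04, adjusted p = 0.145). Without 3.5 g/L library 100, its highest at 10.8 RPKM, the fold was −0.32 and passed (adjusted p = 0.0428). It also passed under median-ratio factors (−0.35, adjusted p = 0.0244) and quantile normalization (−0.42, adjusted p = 0.00667).

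Cyp51 (chromosome 5, 4081145 to 4104746), the cytochrome P450 that strips a methyl group from lanosterol, was near its control level at 1 and 2 g/L and fell at 3.5 g/L. Means were 17.5 ± 2.78 RPKM at 1 g/L, 17.6 ± 3.67 RPKM at 2 g/L and 12.2 ± 1.05 RPKM at 3.5 g/L, beside 18.2 ± 3.42 RPKM in control (SD, n = 6 each). Its 3.5 g/L libraries (11.0 to 13.8 RPKM) lay below all controls (14.5 to 21.9 RPKM). The fold at 3.5 g/L was −0.52 (SE 0.12, adjusted p = 0.00105), and the 95% interval at 2 g/L, −0.31 to 0.20, held 0.

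Dhcr7 (chromosome 7, 143823145 to 143848410), the reductase of the final step, had 11.4 to 14.6 RPKM at 3.5 g/L (median 11.8) and 13.0 to 20.1 RPKM in control (median 15.6). These ranges overlapped a little. The log2 fold was −0.36 (SE 0.12, adjusted p = 0.017).

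Hsd17b7 (chromosome 1, 169949535 to 169969241) is the keto-reductase of the sterol demethylation steps and also reduces estrone. It went against the others at 3.5 g/L, while at 2 g/L it was 1 of 5 members with a log2 fold above 0. Its libraries ran from 8.51 to 13.2 RPKM at 2 g/L (median 10.2) and from 9.99 to 14.4 RPKM at 3.5 g/L (median 12.0), while controls ran from 6.09 to 8.56 RPKM (median 7.12). All 3.5 g/L libraries lay above all controls, and the lowest 2 g/L library lay just below the highest control. The log2 fold was 0.47 at 2 g/L (SE 0.11, adjusted p = 0.00079) and 0.67 at 3.5 g/L (SE 0.11, adjusted p = 1.52e-05), and −0.08 at 1 g/L (SE 0.11). With the title tag as a term the fold at 2 g/L was 0.33 (SE 0.19, adjusted p = 0.239) and the call was lost.

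**Figure D1:**
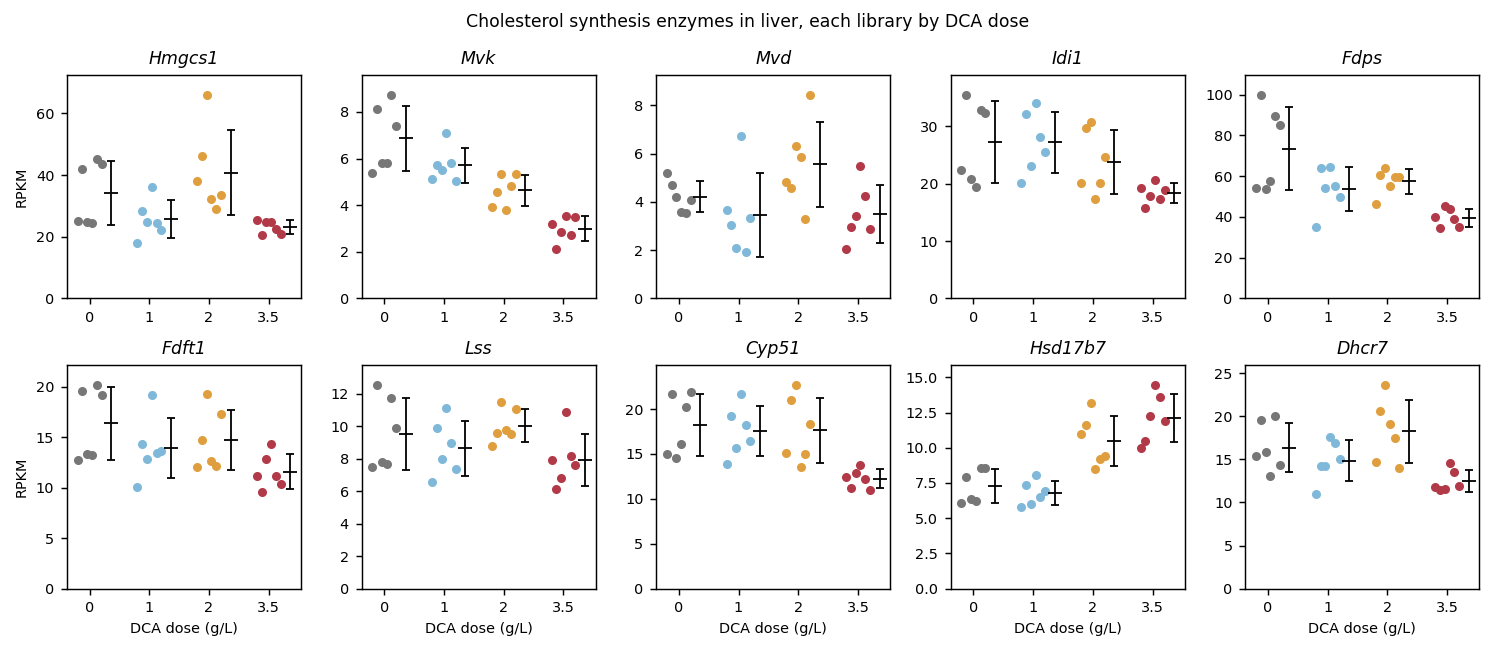
RPKM of each of the 10 enzymes (1 panel each, vertical axis from 0) in 24 liver libraries by DCA dose in g/L. Points are libraries and the bar to their right is the mean with its SD (n = 6). At 3.5 g/L most panels sit low, as in Mvk at 2.13 to 3.54 RPKM. Several are also tight, as in Cyp51 at 11.0 to 13.8 RPKM, and Hsd17b7 sits high at 9.99 to 14.4 RPKM.

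These calls stand against a transcriptome in which much else changed. At 3.5 g/L, 12.9% of all tested genes fell and 38.6% rose, 51.5% in all, against 7 falls and 1 rise among the 10 enzymes. The median log2 fold of the members was −0.47, with 0.10 over all tested genes. Values that did not overlap with control in the lower direction were found for 3 members (Mvk, Fdps, Cyp51) and 5.86% of all genes, and in the upper direction for 1 member (Hsd17b7) and 22.0% of all genes. Calls at 2 g/L were 1 fall (10% of all genes) and 1 rise (41.9%; 51.9% in either direction), with a median of 0.02 over members and 0.12 over all genes, and Mvk alone did not overlap with control in the lower direction (3.10% of all genes). Limma called 0 members at 1 g/L, where it called 11.4% of all genes, 8.35% as higher and 3.03% as lower. Fdps was the 1 member with an unadjusted p under the same threshold there. No member was without overlap at 1 g/L, where 3.01% of all genes lay wholly above and 1.61% wholly below control. The median at 1 g/L was −0.17 over members and 0.05 over all genes. The comparisons with control share the same 6 control libraries and are not independent.

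The balance of rises and falls depended on scaling. Median-ratio library factors moved the median log2 fold of all genes at 2 g/L to 0.01 (0.12 as deposited) and the share of rises among all calls at 3.5 g/L to 52.7% (75.0% as deposited). Quantile normalization gave 49.7%. Under both, 8 members fell and 1 rose at 3.5 g/L, with members' medians of −0.60 and −0.65, and falls made up 22.1% of all tested genes under either. The directions of the 8 called members held under both.

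**Figure D2:**
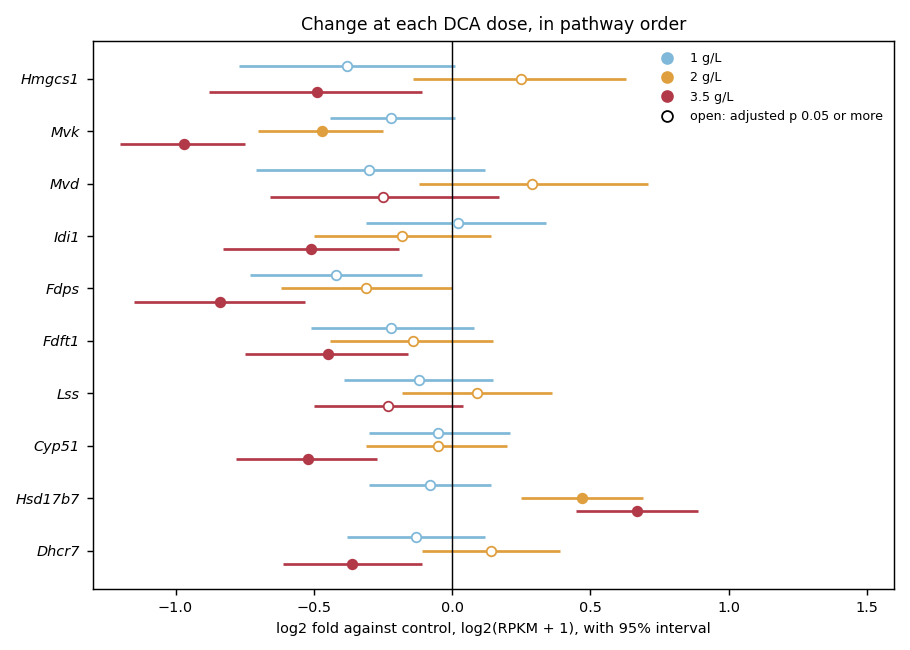
Log2 fold against control, on log2(RPKM + 1), of each enzyme at 1, 2 and 3.5 g/L DCA with its 95% interval from limma; filled points passed the test at an adjusted p under 0.05. Mvk moves left with each dose, to −0.97, Hsd17b7 lies right of 0 at 2 and 3.5 g/L, and at 1 g/L every point is open.

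The path over dose was not even. Between 1 and 2 g/L, 3 members rose and 0 fell, where 22.7% of all genes rose, 5.63% fell and 28.4% were called in all. Hmgcs1 rose to 40.8 ± 13.7 RPKM at 2 g/L, against 25.6 ± 6.20 RPKM at 1 g/L (SD, n = 6 each), a log2 fold of 0.63 (SE 0.19, adjusted p = 0.0147). Mvd rose by 0.59 (SE 0.20, adjusted p = 0.0314) and Hsd17b7 by 0.55 (SE 0.11, adjusted p = 0.000503). Hsd17b7 at 2 g/L lay wholly above 1 g/L, as did 9.11% of all genes, and 0 members lay wholly below it, as 2.11% of all genes did. Within the L2 libraries alone (6 at 2 g/L and 3 at 1 g/L), Hsd17b7 was the 1 member called, while Hmgcs1 (0.52, SE 0.24, adjusted p = 0.195) and Mvd (0.47, SE 0.29, adjusted p = 0.341) were not. The Mvd call was also lost without any of 1 g/L libraries 50, 51 or 53 (adjusted p = 0.0532, 0.0813 and 0.0865) or 2 g/L libraries 75, 76 or 78 (0.0701, 0.0534 and 0.0783).

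Between 2 and 3.5 g/L, 5 members fell and 0 rose, where 5.54% of all genes fell, 4.79% rose and 10.3% were called in all. Hmgcs1 fell by 0.74 (SE 0.19, adjusted p = 0.0136), to 23.1 ± 2.16 RPKM at 3.5 g/L, against 40.8 ± 13.7 RPKM at 2 g/L. Fdps (−0.53, SE 0.15, adjusted p = 0.0253), Mvk (−0.50, SE 0.11, adjusted p = 0.00497), Dhcr7 (−0.50, SE 0.12, adjusted p = 0.0104) and Cyp51 (−0.47, SE 0.12, adjusted p = 0.0163) fell as well. Hmgcs1, Mvk and Fdps did not overlap between these doses, as 2.02% of all genes did not in that direction and 2.11% in the other. The Fdps call was lost without 2 g/L library 75 (adjusted p = 0.0565) or 3.5 g/L libraries 98 (0.0546) or 102 (0.0588), each at a fold of −0.50. Mvd passed without 1 g/L library 52 (−0.54, adjusted p = 0.0483), 2 g/L library 77 (−0.65, 0.0421) or 3.5 g/L library 100 (−0.65, 0.0466), and Lss without 3.5 g/L library 100 (−0.41, 0.0479). Both steps use the 2 g/L libraries, so a high value at 2 g/L enters both with opposite sign. All 2 g/L libraries are tagged L2 and all 3.5 g/L libraries L3.

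A straight slope over dose was lower for 5 members (Mvk, Idi1, Fdps, Fdft1 and Cyp51; 12.6% of all genes) and higher for Hsd17b7 (0.22 log2 units per g/L, SE 0.03, adjusted p = 9.75e-06; 38.0% of all genes, and 50.6% in either direction). With the title tag as a term, Mvk alone kept its slope call, and those of Idi1 (adjusted p = 0.332), Fdps (0.255), Fdft1 (0.253), Cyp51 (0.453) and Hsd17b7 (0.349) were lost. Hmgcs1, which was high at 2 g/L, had a slope without the term of −0.09 (SE 0.06, adjusted p = 0.256). The moderated F test for any difference among doses nevertheless called it (adjusted p = 0.00512). That test called 8 members, leaving Fdft1 (adjusted p = 0.0501) and Lss (0.144), against 59.9% of all genes.

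In control the members ranked by mean level from Fdps (73.4 RPKM) through Hmgcs1 (34.2), Idi1 (27.2), Cyp51 (18.2), Fdft1 and Dhcr7 (16.4 each), Lss (9.52), Hsd17b7 (7.27) and Mvk (6.87) to Mvd (4.22 RPKM). SDs in control were 3.42, 3.61 and 2.84 RPKM for Cyp51, Fdft1 and Dhcr7, and 1.19 and 1.40 RPKM for Hsd17b7 and Mvk. All genes come from the same control libraries, so these SDs do not decide the order, which was not tested. Cyp51 was above Fdft1 in every control, though barely in control 7. The 3.5 g/L mean of Hsd17b7 (12.1 ± 1.73 RPKM) stood beside Cyp51 (12.2 ± 1.05 RPKM), and Mvk (2.99 ± 0.527 RPKM) was last.

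Much of the spread within a dose was shared. Controls 4, 7 and 8 were among the highest 3 of the 6 controls for 10, 9 and 8 of the 10 enzymes, while controls 3, 5 and 6 were for 1, 2 and 0. Fdps was at 99.9, 89.4 and 85.2 RPKM in controls 4, 7 and 8, against 54.3, 53.9 and 57.7 RPKM in controls 3, 5 and 6. Library 52 of 1 g/L was the highest for all 10, and library 49 the lowest for 8. Library 75 of 2 g/L was the highest for 9, library 100 of 3.5 g/L for 8, and 3.5 g/L library 98 was the lowest for 7. All 6 controls bear the same tag, and their estimated depth was 27.1 to 28.6 M reads. The cause of the shared spread was not tested.

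After each dose mean was taken off, the 45 pairs of members had a median Pearson r of 0.73 over the 24 libraries, from 0.10 to 0.94. Among all pairs of the 6540 tested genes the median was 0.06 and the upper quartile 0.24. These are descriptions, since the libraries share dose groups and scaling. Idi1 and Cyp51 were the closest pair (0.94). The low values all involved Mvd, whose median r with the others was 0.23, and without it the lowest of 36 pairs was 0.49. Hsd17b7, which went against the others at 3.5 g/L, moved with them within a dose, at a median r of 0.68 and r = 0.82 with the mean of the other 9.

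Spread also differed between doses. The median coefficient of variation (SD over mean) of the members at 1, 2 and 3.5 g/L came to 19.5%, 20.1% and 12.7%, beside 21.2% in control. Over all tested genes it was 10.9%, 12.3% and 10.7%, beside 11.6% in control. Cyp51 was tightest at 3.5 g/L (8.56%, against 18.7% in control). Mvd went the other way: it was the widest of the 10 at 3.5 g/L (34.4%) and the tightest of the 10 in control, with an SD of 0.634 RPKM about a mean of 4.22 RPKM. The change of spread with dose was not tested.

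**Figure D3:**
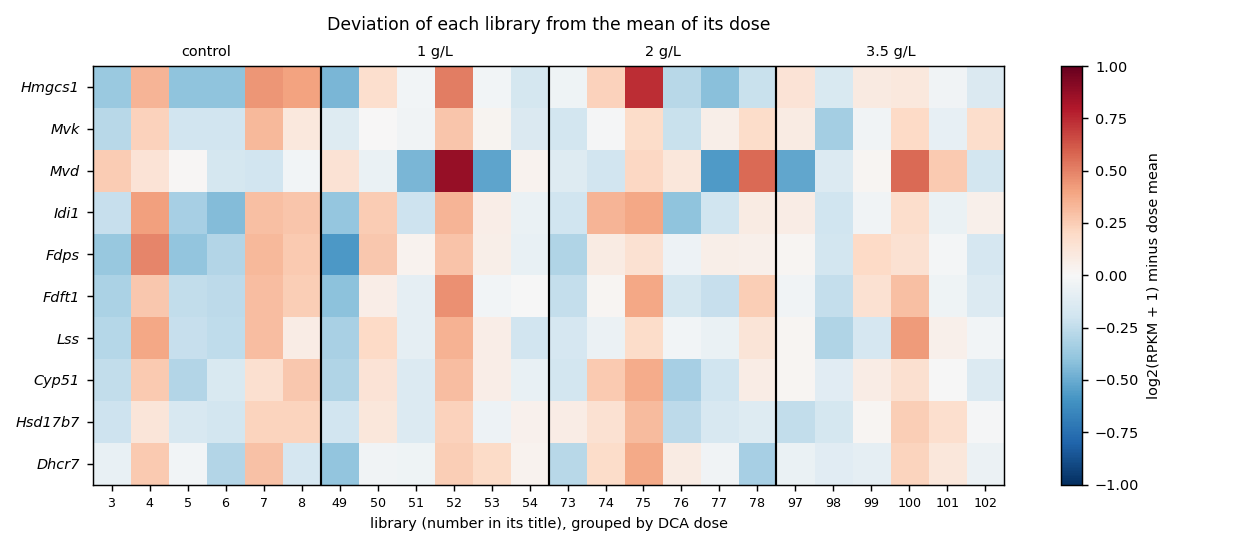
Deviation of each library from its dose mean, in log2(RPKM + 1), for the 10 enzymes (rows) and 24 libraries (columns, by the number in the title). Whole columns share a colour, as in controls 4 and 7 (high) and 1 g/L library 49 (low), and the Mvd row departs from the rest.

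Genes outside the 10 that followed them most closely were sought by the correlation, over all 24 libraries, with the mean of the standardised members. Msmo1, the sterol methyl oxidase that acts later than Cyp51, came first (r = 0.93, and 0.90 after dose means were taken off). Nsdhl, the decarboxylating dehydrogenase of the same demethylation, followed (r = 0.79 and 0.71). The third was 0610007P14Rik (r = 0.78 and 0.77), for which RefSeq gives the name Erg28, a scaffold of the sterol demethylation enzymes in yeast. Ctbs, a lysosomal chitobiase, came next (r = 0.76 and 0.66), and the 4 genes after it had r of 0.69 to 0.73.

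Other genes of sterol and lipid synthesis were taken as a list of 20, of which 19 were tested (Idi2 was too low). Of these, 1 rose and 1 fell at 1 g/L, 7 rose and 0 fell at 2 g/L, and 5 rose and 5 fell at 3.5 g/L, to be read against the shares over all genes given above. With the title tag as a term, 1 of the 7 rises at 2 g/L passed, that of Elovl6. Both calls at 1 g/L were weak: the fall, of the desaturase Fads1 (−0.27, SE 0.09, adjusted p = 0.0494), was lost in 21 of the 24 fits without 1 library, with adjusted p up to 0.122, and the rise, of Insig2, in 10 of them. The list's median log2 fold at 3.5 g/L was 0.09, near the 0.10 of all genes. The falls were in 3 sterol genes, a dolichol gene and a cobalamin gene. Msmo1 was at 17.2 to 28.6 RPKM at 3.5 g/L (median 20.4) and 27.3 to 48.2 RPKM in control (median 36.3), a log2 fold of −0.77 (SE 0.17, adjusted p = 0.000441). Nsdhl fell by 0.46 (SE 0.13, adjusted p = 0.00395), to 8.18 ± 1.15 RPKM at 3.5 g/L, against 11.8 ± 2.53 RPKM in control. Small falls that rested on single libraries were seen in Lbr, a sterol reductase of the nuclear membrane (−0.20, SE 0.07), Dhdds, of dolichol synthesis (−0.22, SE 0.08), and Mmab, a cobalamin enzyme that shares its promoter region with Mvk (−0.16, SE 0.07). The count of falls was 3 without control 4, control 8 or 3.5 g/L library 102, and 2 without 3.5 g/L library 97.

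The sterol isomerase Ebp rose at 2 g/L (0.23, SE 0.07, adjusted p = 0.00908), and at 3.5 g/L was at 59.0 ± 2.38 RPKM, against 55.9 ± 6.75 RPKM in control, which did not pass. Acat2, the cytosolic thiolase before Hmgcs1, likewise rose at 2 g/L (0.25, SE 0.10, adjusted p = 0.0285) and did not pass at 3.5 g/L (0.07, SE 0.10). Neither rise at 2 g/L held under median-ratio factors, at 0.07 for Ebp (adjusted p = 0.369) and 0.11 for Acat2 (0.332). With the title tag as a term both calls were lost too. Ebp kept its fold there with a larger SE (0.26, SE 0.12, adjusted p = 0.156), while Acat2 was at 0.11 (SE 0.16, 0.69). The Acat2 call was also lost without controls 3, 5, 6 or 8 or 2 g/L libraries 75 or 77, with adjusted p up to 0.0812.

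Insig2, which holds SREBP in the endoplasmic reticulum, passed as higher at each dose, weakly at 1 g/L: the log2 fold was 0.41 at 1 g/L (SE 0.13, adjusted p = 0.0383), 0.55 at 2 g/L (SE 0.13, adjusted p = 0.00101) and 0.47 at 3.5 g/L (SE 0.13, adjusted p = 0.00371). The call at 1 g/L was lost without any of controls 3, 4, 5, 6 or 8 or of 1 g/L libraries 50 to 54 (adjusted p up to 0.0952), under median-ratio factors (0.0738) and with the title tag as a term (0.243), which also ended the call at 2 g/L (0.19). Insig1, a known SREBP target with the same role, was at 54.0 ± 9.12 RPKM at 3.5 g/L and 55.5 ± 4.17 RPKM in control (log2 fold −0.05, 95% interval −0.39 to 0.28). Its log2 fold was −0.46 at 1 g/L (SE 0.16, adjusted p = 0.0653), and it rose between 1 and 2 g/L (0.51, SE 0.16, adjusted p = 0.0188). The list held 8 genes of fatty acid and acetyl-CoA metabolism, many of them also SREBP targets. Of these 8, 4 rose at 3.5 g/L, as 38.6% of all tested genes did. Elovl6, a fatty acid elongase, was at 27.1 ± 3.94 RPKM at 3.5 g/L and 5.57 ± 1.93 RPKM in control (log2 fold 2.13, SE 0.15, adjusted p = 9.56e-11). Fasn, fatty acid synthase (1.42, SE 0.21), Acaca, acetyl-CoA carboxylase (1.14, SE 0.12), and Fads2, a desaturase (0.75, SE 0.11), rose there too. The other 4 did not pass, with log2 folds of −0.28 for Acly (SE 0.19), 0.11 for Acss2 (SE 0.22), 0.21 for Aacs (SE 0.22) and 0.21 for Fads1 (SE 0.09, adjusted p = 0.0514).

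Sterol disposal and LXR genes were taken as a second list of 12, of which 11 were tested. Of these, 2 rose and 0 fell at 1 g/L, 7 rose and 2 fell at 2 g/L, and 7 rose and 1 fell at 3.5 g/L. Rises took 8.35%, 41.9% and 38.6% of all tested genes at these doses. Their median log2 fold at 3.5 g/L was 0.20, beside 0.10 over all genes. Median-ratio factors gave 0 rises at 1 g/L, 5 rises and 4 falls at 2 g/L, and 5 rises and 3 falls at 3.5 g/L, and with the title tag as a term 0 rose at 1 g/L and 4 rose and 0 fell at 2 g/L. The falls were Cyp27a1, a sterol hydroxylase of bile acid synthesis, at 2 and 3.5 g/L (−0.24 at each) and Mylip, a ubiquitin ligase, at 2 g/L (−0.25). LXR is a sterol-activated receptor, and some of its targets export cholesterol. Abcg5, a subunit of the canalicular sterol exporter, was at 17.2 to 23.4 RPKM at 3.5 g/L and 7.46 to 11.0 RPKM in control, with no overlap, and rose by 1.01 (SE 0.11, adjusted p = 9.99e-08). Its partner Abcg8 rose by 0.68 (SE 0.13, adjusted p = 0.00013). The exporter Abca1 (0.53, SE 0.06) and the phospholipid acyltransferase Lpcat3 (1.18, SE 0.12) rose as well. Abcg1 (−0.09, SE 0.06), Mylip (−0.04, SE 0.06) and Cyp8b1 (−0.3, SE 0.16) did not pass at 3.5 g/L. Cyp7a1, the rate-limiting enzyme of bile acid synthesis, scattered from 3.80 to 17.2 RPKM at 3.5 g/L and 2.27 to 4.54 RPKM in control, and rose by 1.03 (SE 0.32, adjusted p = 0.010).

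**Figure D4:**
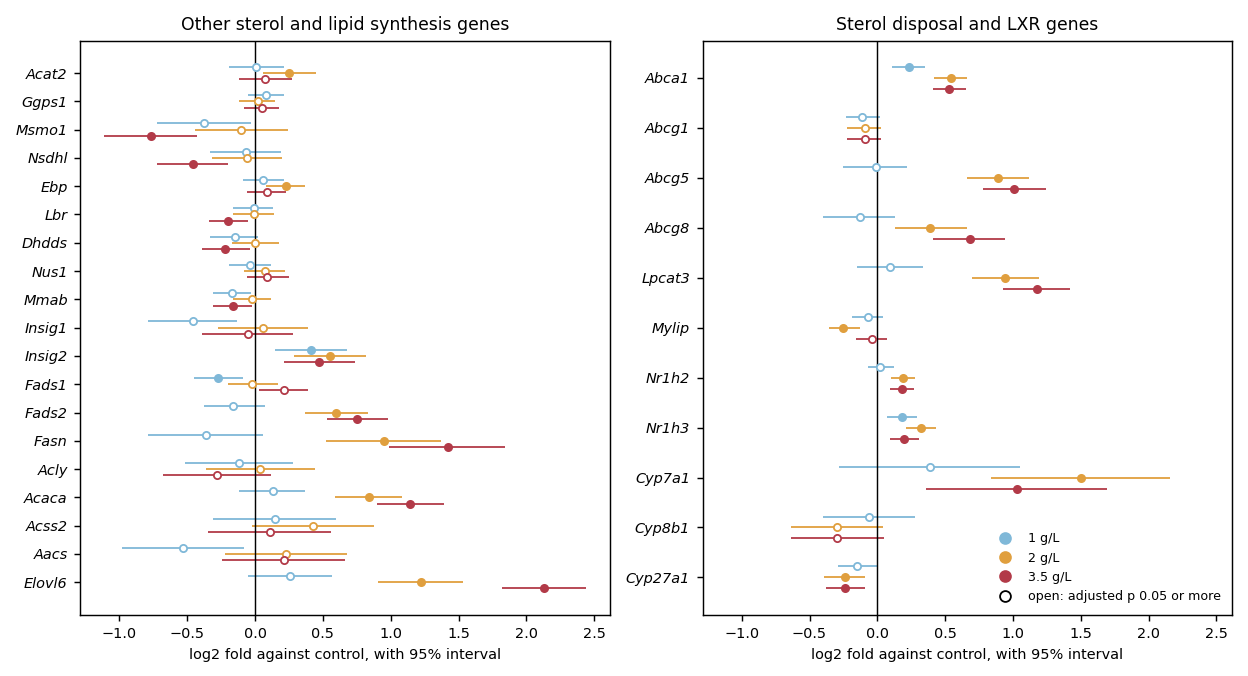
Log2 fold against control at 1, 2 and 3.5 g/L DCA, with 95% intervals from limma, for the other sterol and lipid synthesis genes (left) and the sterol disposal and LXR genes (right); filled points passed the test. At 3.5 g/L Msmo1 (−0.77) and Nsdhl (−0.46) lie left of 0, and Elovl6 (2.13), Fasn (1.42) and Abcg5 (1.01) right of it.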

How the data were processed

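Liver RNA was sequenced after ribosomal RNA removal with a strand-keeping kit, per the labels' protocols. The deposited values are RPKM per gene and library, made by the authors, in 1 table for the series. CASAVA, STAR 2.4, Partek and mm10 are listed, without roles, in the submitters' processing notes. How strand was used, the annotation and any filters were not given in the sources used here. In the table zeros stand as 1e-04 RPKM and were set to 0. The table as held ends within a line, which was dropped with 13 lines whose symbols had become dates, leaving 15582 genes. Genes after the last symbol held were not analysed here. Some further genes of the pathway are not reported here. No sample column was left unused.

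Relative depth came from the commonest ratio of low values between libraries (0.951 to 1.131 of the median library). Of 29246 low values of 1550 genes, 29220 (99.9%) were whole multiples of 1 read within 0.02 times their number of reads, a share that the choice of those genes favours. Annotated lengths of 361 genes with 1 transcript set the scale (27.1 M reads in control 3, interquartile range 26.8 to 27.1 over genes). Because whole reads came out only for part of the genes, count models were not used.

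The test took genes reaching 0.5 RPKM in 6 or more libraries and used limma 3.58.1 in R 4.3.3 on log2(RPKM + 1), with 1 mean per dose over 24 libraries and a spread that followed expression level. Such folds understate changes of low genes. P-values are two-sided and adjusted by Benjamini-Hochberg over all tested genes. They measure the spread between libraries, since the labels do not say that each is its own mouse. The procedure was tested on simulated data. Alternatives were other pseudocounts, filters, scalings and variance priors, the title tag as a term, fits within 1 tag or of 2 doses, and leaving out each library. The members, the gene lists and the rule for like-patterned genes were chosen with earlier results of these data known, and lists are described by counts, not tested. All members are named; from the lists, genes that passed in at least 1 comparison are named in part. Promoters and coordinates are from RefSeq and GENCODE M21 on GRCm38, matched by symbol.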

Additional observations from a re-analysis of the deposited data

Results flagged for a closer look

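In 1 of the 1 g/L libraries, number 52, 2 members stood far above the other 5 libraries of that dose by Dixon's criterion for a single distant value. Mvk was at 7.11 RPKM there and at most 5.80 RPKM in the others. Mvd was at 6.74 RPKM there and at most 3.67 RPKM in the others. Of 40 combinations of member and dose that were checked these were the 2 flagged, and chance flags about 1 in 20. The library was the highest of its dose for all 10 members.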

How the results depend on the processing

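Of 1970 member values recomputed, 1914 kept their side of the threshold, 31 lost a call, 25 gained one and 0 called values changed sign. Among uncalled values, 25 took the other sign. The 7 falls at 3.5 g/L ranged from 6 to 8 over left-out libraries, the rise of Hsd17b7 stayed, and pseudocounts of 0.5 and 0.1 RPKM kept every count of members within 1.5 times. Median-ratio factors gave 1 fall at 1 g/L, 2 falls at 2 g/L and 1 fall from 1 to 2 g/L. Quantile normalization gave 1 fall at 1 g/L, 3 falls at 2 g/L, 1 rise and 1 fall from 1 to 2 g/L and 8 lower slopes. With the title tag as a term, members showed 0 rises at 2 g/L, 1 rise from 1 to 2 g/L, 0 higher slopes and 1 lower slope, and calls over all genes were 172 at 1 g/L, 973 at 2 g/L, 956 from 1 to 2 g/L and 853 for the slope, against 744, 3395, 1855 and 3309. Comparisons with 3.5 g/L could not be fitted with the term, and the slope with the term rests on the libraries from 0 to 2 g/L. Within 1 tag, with fewer libraries, 50 genes were called at 1 g/L and 589 from 1 to 2 g/L, with 1 member rising there. Fits of only the 2 doses compared gave 1 member falling from 1 to 2 g/L (Mvk) and 446 calls from 2 to 3.5 g/L, against 675. Leaving out 1 library gave 0 to 1 falls of members at 1 g/L, 1 to 2 at 2 g/L, and 456 to 971 calls over all genes at 1 g/L (456 without control 3, 476 without 1 g/L library 52 and 484 without 1 g/L library 54). The causes of these differences were not tested. With no filter, Hmgcs1 lost its call at 3.5 g/L (adjusted p = 0.0601), Mvd from 1 to 2 g/L (0.065) and Fdps from 2 to 3.5 g/L (0.0504). No paired analysis was possible because the doses share no replicate numbers. Depth limits Mvd most, with about 98 to 467 reads per library.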
